A study of Homo sapiens with 9 samples.

Results

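The baseline transcriptome described here is that of HEK293T cells transfected with an empty vector. Its members were the genes with a level of at least 1 RPKM (reads scaled to the kilobases of gene length and to the depth of the library) in all 3 empty vector libraries, ranked by their mean RPKM, and 11304 of the 57338 genes in the table (19.7%) met this rule. The study asked what protamines, the small arginine-rich proteins that package DNA in sperm, do to the chromatin and transcription of a somatic cell. It sequenced 9 libraries from cells carrying an empty vector, hPRM1 or hPRM2, and only the 3 empty vector libraries enter the values below, so no test between groups was made. The empty vector cells received the plasmid pcDNA3.1-EGFP, which encodes green fluorescent protein without a protamine, and live cells with high EGFP were sorted 3 days after transfection. They are therefore not untreated cells, since they went through transfection, EGFP expression and sorting. The libraries capture the 3′ ends of messenger RNA. All 3 libraries come from a single cell line, and the labels do not say whether they are separate cultures, so the SD values measure only the spread between these libraries.

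HEK293T is a human embryonic kidney line that was transformed with adenovirus DNA and later given the SV40 large T antigen. Although it was made from kidney, it carries neurofilaments and other genes of neural cells beside vimentin and simple epithelial keratins, and it divides quickly. A dividing cell of this kind devotes much of its messenger RNA to ribosomes and protein synthesis, while genes of specialised tissues stay off. Many gene families hold members of both kinds, so that a family can be read as a list of which paralogs a cell uses.

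The promoters of 6 genes are shown as examples of sequence at genes in use and at genes listed at 0. CKB and ACTG1 were the leading creatine kinase and actin, CKM and ACTA1 are their skeletal muscle paralogs and were listed at 0, LIN28B is a marker of the line, and TLR4 is a receptor of innate immunity that was listed at 0. Each line gives the 100 bases before the transcription start from RefSeq (build GRCh38.p14), on the strand of the gene, with CpG dinucleotides in capitals. They lie at chr14:103522831-103522930 (minus strand) for CKB, chr19:45322876-45322975 (minus) for CKM, chr17:81512800-81512899 (minus) for ACTG1, chr1:229434095-229434194 (minus) for ACTA1, chr6:104940865-104940964 (plus) for LIN28B and chr9:117704303-117704402 (plus) for TLR4.
CKB: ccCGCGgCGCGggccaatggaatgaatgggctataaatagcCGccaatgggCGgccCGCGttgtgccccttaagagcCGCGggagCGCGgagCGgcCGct
CKM: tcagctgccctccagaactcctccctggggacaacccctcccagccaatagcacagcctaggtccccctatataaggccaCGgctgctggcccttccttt
ACTG1: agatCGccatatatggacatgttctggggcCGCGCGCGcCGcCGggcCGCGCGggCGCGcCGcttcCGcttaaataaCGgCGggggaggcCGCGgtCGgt
ACTA1: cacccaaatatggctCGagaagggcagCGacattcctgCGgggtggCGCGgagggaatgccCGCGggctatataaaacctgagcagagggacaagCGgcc
LIN28B: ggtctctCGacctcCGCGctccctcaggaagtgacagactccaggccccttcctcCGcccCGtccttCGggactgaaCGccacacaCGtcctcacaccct
TLR4: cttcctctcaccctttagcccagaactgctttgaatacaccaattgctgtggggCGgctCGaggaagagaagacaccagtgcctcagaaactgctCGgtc

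The printed stretch held 14 CpG dinucleotides in CKB against 1 in CKM, and 19 in ACTG1 against 8 in ACTA1. LIN28B held 8 and TLR4 held 3. Over the whole window of 300 bases (250 before to 50 after the start) the counts were 36 for CKB, 5 for CKM, 50 for ACTG1, 29 for ACTA1, 37 for LIN28B and 8 for TLR4. ACTA1 shows that a promoter with many CpG can belong to a gene listed at 0.

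The same was counted for 15237 protein-coding genes that matched a RefSeq promoter by symbol. The median number of CpG in the window was 27 for the 8514 genes that were members, 5 for the 3997 genes listed at 0 in all 3 libraries and 20 for the 2726 genes in between, beside 22 over all of them. At least 10 CpG were present in 92.9% of member promoters and in 34.7% of the promoters of genes listed at 0. Among members, the median stayed between 26 and 29 over 10 equal bins by level. CpG number thus differed, with overlap, between members and genes listed at 0, and differed little along the ranking of members. The median GC content of the window was 66% in members and 53% in genes listed at 0. CpG number was not scaled to GC content, and the part of each was not tested.

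The motif TATAAA, searched on the strand of the gene in the last 50 bases before the start, was present in 1.54% of member promoters and in 9.51% of promoters of genes listed at 0, against 3.89% of all 15237. On the opposite strand the shares were 0.435% and 1.501%. ACTA1 carries the motif in this window, 32 bases before the start by its overlapping letters TATATA. CKB carries TATAAA 69 bases before the start and CKM carries TATATA, and neither counts under this definition. After these sequences had been seen, the search was widened to TATAAA or TATATA (which overlap in TATATAAA and count once per promoter) in the last 100 bases, and the shares were then 2.28% of members and 14.2% of genes listed at 0. CCAAT on either strand of the window was present in 36.1% and 34.2%. A match describes letters only and is not evidence of a bound factor.

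Marker genes were set beside the label. Their lists were written with earlier results of these data known, so the counts do not test the label. Of 13 genes listed as marks of HEK293T cells, 12 were members, beside 52.6% of all protein-coding genes. LIN28B, an RNA-binding protein that blocks the maturation of let-7 microRNAs, had 16.4, 19.4 and 15.9 RPKM in replicates 1, 2 and 3. Its paralog LIN28A, a gene of pluripotent cells, was listed at 0. CKB, the brain-type creatine kinase, had 2915, 2871 and 4609 RPKM, so that replicate 3 was the highest and the others lay close together. VIM, the intermediate filament protein vimentin, was even across libraries at 598, 549 and 595 RPKM.

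Some neural and developmental genes of this list were members too. NEFM, the medium neurofilament chain, had 108, 67.8 and 51.9 RPKM, and INA, a further neuronal filament protein, had 12.3, 12.98 and 10.2. The kidney developmental regulators EYA1 (1.93, 3.43 and 5.78 RPKM) and PAX2 (1.52, 3.00 and 1.34) were members at low levels. The simple epithelial keratin pair KRT8 (20.8, 15.8 and 27.5 RPKM) and KRT18 (34.4, 37.6 and 46.8) was expressed as well. NEFL, the light neurofilament chain, was the 1 marker that was not a member, at 0, 0.135 and 1.12 RPKM.

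Markers of other cell types were mostly not members. In each of these lists the share of members was below the 52.6% of all protein-coding genes. None of 15 mature kidney genes was a member and 10 were listed at 0, among them AQP2, the water channel of the collecting duct, and UMOD, the uromodulin of the thick ascending limb. None of 15 leukocyte genes, of 13 erythroid genes or of 9 hepatocyte genes was a member. The alpha globin genes HBA2 (0, 0 and 18.0 RPKM) and HBA1 (3.09, 5.72 and 0) were above 0 in some libraries. How reads were split between these similar copies was not tested. The endothelial list had 1 of 9 (EGFL7), the fibroblast list 1 of 10 (COL1A1), the keratinocyte list 1 of 8 (KRT10), the skeletal muscle list 1 of 9 (MYOD1, at 1.79, 2.11 and 1.91 RPKM) and the adrenal list 1 of 11 (CHGA). Of the pluripotency genes SOX2 and UTF1 were members and 6 of 8, including POU5F1 and NANOG, were listed at 0. The neuronal list had 5 of 13, led by TUBB3 (17.8, 9.30 and 31.3 RPKM), a neuronal tubulin. GAD1, an enzyme of GABA synthesis, had 21.7, 12.3 and 0.714 and missed the rule in replicate 3 alone.

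PRM1 and PRM2, the protamine genes that the other plasmids of the study carry, had a listed value of 0 in each of the libraries. So had PRM3 and the genes TNP1 and TNP2 of the transition proteins, which precede protamines on sperm DNA. A listed 0 need not mean that no RNA was there. PGK1, a glycolytic enzyme that dividing cells use, had 1.59, 1.95 and 0 RPKM, and MCM4, a subunit of the replicative helicase named here after its values were seen, had 34.7, 58.9 and 0.

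The files hold no counts, and the reads on genes behind each library were estimated from the steps between low values at 7910000, 8540000 and 10775000 for replicates 1, 2 and 3. At these depths 3 reads, taken here as an approximate upper limit for a count of 0, correspond to 0.379, 0.351 and 0.278 CPM (counts scaled to depth alone). This is not a hard ceiling and covers counting error only. The paper reports a higher average number of reads for its control samples. The range searched for the estimate ended below that average, so these depths hold only within the range searched. Replicate 3 had the most estimated reads and the fewest genes above 0, with 14724 against 15884 and 16705. It was also the library in which most genes were listed at 0 alone, with 1276 against 551 and 352.

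Protein-coding genes made up 91.5% of the members. Of 19659 protein-coding genes in the table, 10343 (52.6%) were members and 5650 (28.7%) were listed at 0 in all 3 libraries. Of 7276 lincRNA genes only 232 were members, of 5423 antisense genes 260, and of 14981 pseudogenes 247. A total of 38704 genes (67.5% of all in the table) were listed at 0 in all 3 libraries. The median member had a mean of 16.1 RPKM. By chromosome, the share of protein-coding genes that were members ran from 44.1% on X and 45.1% on 11 to 60.0% on 14 and 60.2% on 22. Just inside the threshold lay EHD2, whose lowest library had 1.0009 RPKM, and just outside lay FCSK, whose lowest had 0.998.

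Small RNA genes were few among the members, 42 of 6537, but had a median mean of 778 RPKM. The top of the ranking was a small RNA too. BCYRN1, a short cytoplasmic RNA of 200 bases (chr2:47335315-47335514), had 1369516, 1058981 and 1462932 RPKM, which was 46.6%, 40.6% and 46.4% of the summed RPKM of the 3 libraries. The paper describes RPKM as reads divided by gene length. With 250 bases subtracted from that length, 87.1%, 89.3% and 85.3% of low values in replicates 1, 2 and 3 were whole reads. With nothing subtracted the shares were 9.40%, 8.18% and 10.1%, so the full annotated length fitted few values. BCYRN1 came to an estimated 1.28% of reads. Its 200 bases are fewer than the 250 subtracted, so this share rests on the assumed fragment length and is poorly determined. The part of length in its rank was not tested. Of the 25 top genes, 12 had an annotated transcript under 300 bases, against 12.1% of all members, and a ranking by estimated reads shared 15 of the 25 genes. RPKM divides reads by length, while these libraries capture 3′ ends, so a rank by RPKM is not a rank by reads. SNHG25 ranked 3 by RPKM and 363 by estimated reads, and RNU4ATAC ranked 25 and 3099. RPS29 and EEF2 ranked 2 and 4 by RPKM, and 1 and 3 by estimated reads.

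Ribosomal protein genes followed. They held 14 of the 25 top places and 54 of the 100 top places, paralogs included, among 82 members of this kind. RPS29, a protein of the small subunit, had 71244, 67550 and 71608 RPKM. It was first by reads estimated with the mean length of its annotated transcripts (8.68%), but this share was 0.342% with the shortest transcript, below BCYRN1, and 47.8% with the longest. RPL39 of the large subunit had 35284, 32754 and 36809, RPL41 had 24522, 22484 and 29804, and RPL27 had 21724, 21582 and 21668. The RPL27 libraries differed by less than 1.01-fold. RPS27, RPS18, RPS21, FAU (which encodes a ubiquitin-like protein fused to a ribosomal protein), RPS15, RPS19, RPLP2 and RPS2 were also in the top 25, with means from 17035 down to 10835 RPKM.

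The remaining top 25 were a mixed set. EEF2, which moves the ribosome along the message, had 36080, 32478 and 41216 RPKM. SNHG25, a host gene of small nucleolar RNAs, had 42352, 37774 and 57241. ARHGDIA, an inhibitor of small GTPases, had 12637, 10723 and 16034, and H4C3, a histone H4 gene, had 15117, 14250 and 10505. In ARHGDIA and EEF2 replicate 3 was the highest library, and in H4C3 it was the lowest. The ribosomal RNA genes RNA5-8SN3 and RNA5S12, the splicing RNA gene RNU4ATAC and 2 genes named only by identifier (ENSG00000279337 and ENSG00000220370, a processed pseudogene) also stood there. Ribosomal and splicing RNA are not messenger RNA, whose 3′ ends these libraries capture. How the reads on those RNA genes arose was not tested. MTND1P23 (18463, 16994 and 25476 RPKM) is a nuclear copy of a mitochondrial gene, and mitochondrial genes had been removed from the table, so its reads cannot be told from those of its source.

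By reads estimated with the mean transcript length, an order that depends on that length because the counted isoform is not known, the first 15 genes included RPS29, RPL39, EEF2, BCYRN1, RPL27, ARHGDIA, RPS18, RPS19, RPS2, FAU, RPL18, RPL41 and RPL7A. RPL18 and RPL7A were the members of this order that are not in the top 25 by RPKM. The 100 top genes by RPKM held 74.2%, 70.7% and 75.2% of the summed RPKM (73.4% ± 2.38, SD, n = 3). Without BCYRN1 they held 51.7%, 50.6% and 53.7%.

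**Figure D1:**
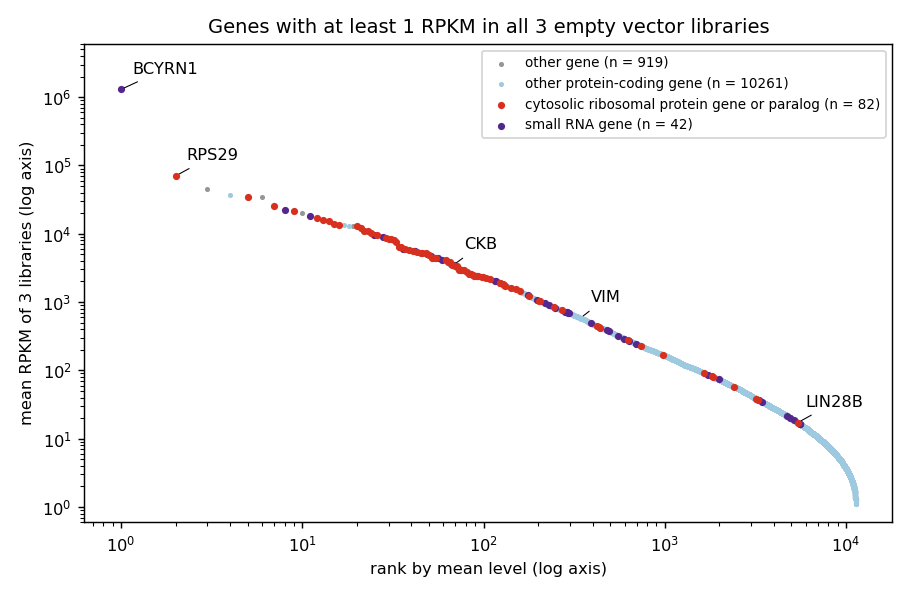
Mean RPKM of the 3 empty vector libraries (y axis, log) against rank (x axis, log) for the 11304 members, with ribosomal protein genes in red (n = 82), small RNA genes in purple (n = 42), other protein-coding genes in light blue and other genes in grey. BCYRN1 stands alone at the top, the red points crowd the first 100 ranks, and the markers CKB, VIM and LIN28B lie further down.

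Gene families were described through 36 lists of 444 genes. Of these, 183 (41.2%) were members and 149 (33.6%) were listed at 0, beside 52.6% and 28.7% over all protein-coding genes. In 3 lists every gene was a member, namely the 12 translation elongation factors, the 5 FGF receptors and the 3 nucleophosmins. In 1 list, the voltage-gated sodium channel alpha chains, none of 9 was.

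The elongation factors were led by EEF2, which held 87.3% ± 0.393 (SD, n = 3) of the RPKM of its list. The estimated share of all reads for EEF2 was 0.0455% with its shortest annotated transcript and 10.7% with the longest. The length behind its RPKM is not known, and the SD does not cover this. EEF1A1, which brings aminoacyl-tRNA to the ribosome, had 1724, 1552 and 1718 RPKM. Its paralog EEF1A2, known from neurons and muscle, had 51.0, 49.1 and 95.2, with replicate 3 above the other libraries. Of the nucleophosmins, histone chaperones of the nucleolus, NPM1 had 860, 793 and 1197 RPKM, NPM3 had 448, 368 and 1028, and the egg-type NPM2 had 3.06, 6.15 and 4.13.

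Creatine kinases buffer ATP through phosphocreatine. CKB held 98.7% ± 0.103 (SD, n = 3) of the RPKM of this family, followed by the mitochondrial CKMT1A (23.2, 27.0 and 41.1 RPKM) and CKMT1B (14.8, 14.9 and 16.7). CKMT1A and CKMT1B are near-identical copies on chromosome 15, so reads could be split between them. The muscle forms CKM and CKMT2 were listed at 0. Among the actins the cytoplasmic ACTG1 (2341, 1979 and 3398 RPKM) and ACTB (1043, 1055 and 1200) led, the smooth muscle ACTA2 had 26.1, 27.5 and 17.9, and ACTA1 and ACTG2 were listed at 0. ACTC1, the cardiac actin, had 0, 0.407 and 0.

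Among the intermediate filaments outside the keratins 8 of 16 were members. The nuclear lamins LMNB1 (57.9, 54.2 and 51.0 RPKM), LMNA (58.2, 44.3 and 59.6) and LMNB2 (32.1, 40.4 and 33.0) came after VIM and NEFM, while DES of muscle, NEFH and BFSP2 of the lens were listed at 0. Of 14 keratins, KRT10 led with 394, 440 and 449 RPKM and 10 were listed at 0, among them KRT5 and KRT14 of basal epidermis and KRT7 and KRT19 of simple epithelia. KRT10 is a keratin of upper epidermis, whose partner KRT1 was listed at 0.

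Metallothioneins bind zinc and copper, and 3 of 11 were members. MT2A had 438, 600 and 647 RPKM and held 82.2% ± 9.76 (SD, n = 3) of the family. MT1X had 53.0, 45.6 and 119, and MT1F had 47.7, 4.25 and 122. MT1F was the least even of the 3, with replicate 2 far below the others. The other 8, from MT1A to MT4, were listed at 0.

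Of the thymosins and prothymosins 5 of 6 were members. TMSB10, which binds actin monomers, had 1932, 1798 and 2117 RPKM and PTMA, a nuclear acidic protein, had 1719, 1880 and 1488. TMSB4X, a paralog of TMSB10, had 58.1, 34.3 and 18.9. Of the 14-3-3 proteins, adaptors that bind phosphorylated partners, 6 of 7 were members, from YWHAE (668, 893 and 469) to YWHAG (48.0, 50.8 and 49.0), and SFN, the epithelial form, had 1.18, 0.765 and 0. Galectins, lectins for galactosides, were led by LGALS1 (101, 94.3 and 93.3 RPKM), with LGALS3 next and 6 of 10 listed at 0.

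Cyclophilins, which isomerise proline bonds, had 16 of 17 members, led by PPIA (918, 932 and 1565 RPKM). The karyopherins alpha, which carry nuclear import cargo, had 6 of 7, led by KPNA2 (152, 163 and 189), with KPNA7 listed at 0. Annexins, which bind membranes through calcium, had 7 of 12, led by ANXA5 (104, 106 and 142). The share of members was 94.1% in the cyclophilins, 85.7% in the karyopherins alpha and 58.3% in the annexins, beside 52.6% of all protein-coding genes. The annexin share lay near that of all protein-coding genes.

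Families of cell adhesion had fewer members. Claudins, the sealing proteins of tight junctions, had 2 of 24, CLDN12 (18.4, 11.98 and 25.2 RPKM) and CLDN15 (9.996, 8.53 and 7.20), and 17 were listed at 0. Of 19 classical cadherins CDH2, the neural cadherin, was the single member at 4.45, 11.5 and 4.68, and the epithelial CDH1 had 1.47, 1.44 and 0.680. Connexins had 3 of 21, led by GJC1 (33.5, 30.9 and 6.94) ahead of GJA1 (5.61, 6.85 and 6.05). Replicate 3 lay well below the others in GJC1 and not in GJA1.

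Integrins join cells to the matrix as pairs of an alpha and a beta chain. ITGB1, the chain shared by many pairs, had 96.5, 71.8 and 37.0 RPKM and was followed by ITGB5 as the only other member of 8. Of 18 alpha chains 7 were members, led by ITGAE with 133, 120 and 109 RPKM, while ITGA5, the fibronectin receptor chain, had 7.07, 4.95 and 5.79. The caveolae were represented by CAVIN1 (38.9, 36.9 and 32.5), CAV3, CAV2 and CAV1.

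Signal receptors were mostly low. All 5 FGF receptors were members, from FGFRL1 (14.1, 17.1 and 19.6 RPKM) to FGFR4 (2.81, 2.44 and 3.94). Of the EGF receptor family ERBB2 (2.004, 4.66 and 2.99) and EGFR (1.88, 1.99 and 1.83) were members and ERBB4 was listed at 0. Insulin and IGF receptors gave 3 of 4, IGF2R, IGF1R and INSR, with INSRR listed at 0. Notch receptors gave 3 of 4, led by NOTCH2 (4.30, 5.96 and 5.62), and the Wnt receptors (Frizzled with LRP5 and LRP6) 9 of 12, led by FZD2 (15.9, 18.5 and 27.5).

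The TGF-beta and BMP receptors had 7 of 13 members, led by ACVR1B (3.42, 7.02 and 10.2 RPKM). Of the adrenergic, muscarinic and purinergic receptors 3 of 24 were members, ADRA2C (23.4, 15.4 and 17.4), P2RY11 (12.9, 5.31 and 2.14) and CHRM3 (1.08, 2.25 and 3.70), and 15 were listed at 0. Adenylyl cyclases, which make cyclic AMP, had 4 of 10, led by ADCY3 (5.98, 7.70 and 7.61). Aquaporins had 1 of 14, AQP3, and glucose transporters 6 of 14, where SLC2A3 (48.9, 54.2 and 7.84) and SLC2A1 (14.2, 11.2 and 26.6) changed places in replicate 3.

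Innate immune sensing was thinly represented, with 5 of 24 genes. These were the transcription factors IRF3 (156, 154 and 208 RPKM) and IRF7, the kinase TBK1 (15.1, 32.2 and 40.5), the adaptor MAVS (10.7, 9.66 and 7.97) and DHX58, a regulator of RNA sensing. The adaptors MYD88 (1.55, 0.862 and 0 RPKM) and TICAM1 (0, 1.40 and 0.535) were not members. TLR1, TLR2, TLR4, TLR7, TLR8, TLR9 and TLR10 and the sensors IFIH1, AIM2, IFI16 and ZBP1 were listed at 0. CGAS, the cytosolic DNA sensor, had 0, 0.359 and 0 RPKM, and its partner STING1 had 0.214, 0.0793 and 0.

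Transcription factor families were used in part. Nuclear receptors had 23 of 48 members, led by NR2F2 (53.5, 61.3 and 42.9 RPKM) and NR2F1 (45.1, 48.9 and 31.0), orphan receptors of development, while ESR1, HNF4A, NR1I2, NR0B1 and NR0B2 were among those listed at 0. NR3C1, the glucocorticoid receptor, had 37.3, 45.8 and 2.95, so replicate 3 stood apart. SOX factors had 7 of 19, led by SOX4 (97.3, 86.7 and 86.3), and SOX9, SOX10 and SOX17 were listed at 0. GATA factors had 4 of 6, GATA2 (11.9, 10.5 and 10.5), GATA4, GATA3 and GATA6, and the erythroid GATA1 was listed at 0. PAX factors had 4 of 9, led by PAX6 (4.56, 30.3 and 16.2), with PAX8 of kidney and thyroid listed at 0.

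Among long noncoding RNAs, snoRNA host genes were frequent at the top. After SNHG25 came SNHG9 (1937, 2673 and 2089 RPKM) and SNHG8 (1256, 1777 and 1424). MALAT1, a nuclear speckle RNA, had 2021, 1666 and 547, with replicate 3 the lowest. GAS5, a further snoRNA host, was even at 881, 839 and 812. These genes were picked as the leading noncoding members after their values were seen.

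Replicate spread was measured as the SD of log2(RPKM + 1) between the 3 libraries, and its median over the members was 0.34. Across genes, which are not independent replicates, Pearson's r of log2(RPKM + 1) was 0.951 between replicates 1 and 2, 0.930 between 1 and 3, and 0.929 between 2 and 3. The members over 2-fold apart numbered 1130 (9.996%), 1831 (16.2%) and 1914 (16.9%) in the same order. Replicate 3 was the library farthest from the mean of the gene in 44.6% of the members, against 27.4% and 28.0%. The median SD was 0.31 without replicate 1, 0.30 without replicate 2 and 0.22 without replicate 3. The median of an SD tends to be lower with fewer libraries. These values are therefore to be set beside each other and not beside 0.34.

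The deviation of replicate 3 moved with base composition. Members were put into 5 equal bins by the GC content of their annotated transcripts. In the bin with the lowest GC content its median deviation from the mean of the gene was -0.17 on the log2(RPKM + 1) scale, and in the bin with the highest it was 0.13. Replicate 1 went from 0.07 to -0.07 and replicate 2 from 0.10 to -0.03. The deviations of a gene sum to 0 over the libraries, so the 3 lines are not independent. The part of GC content in the spread was not tested.

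Spread differed by level. The median SD was 0.32 among members with a mean of 1 to 3 RPKM, 0.43 at 3 to 10 and 0.20 above 1000. At the lowest levels a pseudocount of 1 compresses differences. Members also need at least 1 RPKM in every library, which limits how low a value can go. The median CV, which uses no pseudocount, was 32.5% at 1 to 3 RPKM and 34.5% at 3 to 10. The part of each was not tested. For genes with a single annotated transcript the median CV was 38.4% at 10 to 30 estimated reads (n = 78), beside 21.4% for counting error alone, and 17.1% at over 300 (n = 245), beside 4.16%. Under 10 reads it was 22.4% beside 33.0%, over 2 genes.

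The 10 members with the largest SD, among those with a symbol and a mean of at least 10 RPKM, were PIK3C2A, RPS27P29, PSKH1, PDE8A, RN7SL3, ZNF33B, STAG2-AS1, RTN4IP1, CEP295 and ZNF778. PIK3C2A, a lipid kinase, had 1459, 1160 and 15.5 RPKM, and its annotated span overlaps the ribosomal protein gene RPS13. CEP295, a centriole protein, had 194, 9.56 and 3.18, and overlaps SCARNA9, which had 796, 344 and 399. PDE8A, a phosphodiesterase, was high in replicate 2 alone (6.76, 431 and 10.9), and RTN4IP1 in replicate 1 alone (156, 2.94 and 4.01). Whole-gene values of these genes differed by over 50-fold between libraries of the same group.

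The 10 with the smallest SD included ZNF280B, RPS6, RPL27, CCT4, ANP32A, MID1IP1, CCNA2, MARCKSL1 and C22orf39. ZNF280B had 14.96, 14.90 and 14.93 RPKM, CCT4, a chaperonin subunit, had 764, 765 and 770, and CCNA2, the cyclin of S phase, had 36.2, 36.2 and 35.9. With 6957 genes to choose from, the extremes at both ends are picked by their value and are given as a description.

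After these names had been seen, the members were split by their shortest annotated transcript. It was under 300 bases in 9 of the 10 genes with the largest SD, in 0 of the 10 with the smallest, in 50 of the 100 largest, in 11 of the 100 smallest, and in 14.3% of all 6957. Members above 1000 RPKM had a median SD of 0.28 where a transcript under 300 bases is annotated (n = 72) and of 0.18 where none is (n = 141), while at 1 to 3 RPKM both were 0.32. Which isoform the length of a gene was taken from in each library is not given in the sources used here, and its part in the spread was not tested.

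Of 17 genes in common use as references in quantitative PCR, 16 were members, with a median CV of 16.9%. TBP, the TATA-binding protein, had 28.6, 29.8 and 28.4 RPKM, within 1.05-fold. GAPDH, a glycolytic enzyme that the study used as an internal control, had 2030, 1941 and 2526, and ACTB varied less than that. SDHA, a mitochondrial dehydrogenase subunit, had 104, 57.3 and 214 and was the least even of them. PGK1 was the gene that was not a member.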

How the data were processed

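RNA of HEK293T cells was measured by 3′ mRNA sequencing (QuantSeq, NovaSeq) in 9 libraries, of which the 3 of the empty vector were analysed. The authors processed the reads with nf-core/rnaseq (FastQC, Cutadapt, STAR and Salmon, genome hg38, annotation release not given in the sources used here), removed mitochondrial genes and deposited RPKM values without counts. Groups came from the sample labels. Members had at least 1 RPKM in all 3 libraries, and SD values are on the log2(RPKM + 1) scale. Members and gene lists were chosen with earlier results of these data known.

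The genes named are the 25 highest by mean RPKM, the 15 highest by estimated reads, in each list the leading members and those listed at 0, the reference genes, the 10 largest and 10 smallest SD values, and PRM1 and PRM2. Other genes are said to be chosen after their values were seen, or are examples from lists. Symbols were available for 71.7% of the genes. Classes, lengths, GC content and overlaps are from GENCODE 29, which may differ from the annotation the authors used. Promoters are from RefSeq (GRCh38.p14), matched by symbol. Depth was estimated from single-transcript genes: with 250 bases subtracted from the length, 87.1%, 89.3% and 85.3% of low values were whole within 0.02 of a read. The estimate and the SD were tested on simulated data. For the estimate, these data used the same 250 bases and depths near those found, so they could not check the assumed length. Python 3.11.15, pandas 2.3.3, numpy 2.4.6 and SciPy 1.17.1 were used. The alternatives tried were other RPKM minimums, pseudocounts, scalings, rankings and leaving out each library. The 6 protamine libraries were not used here. Some genes that the naming rule selects are not reported here.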

Additional observations from a re-analysis of the deposited data

How the results depend on the processing

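No paired analysis was possible because the values describe a single group and no comparison between groups was tested. The 100 top genes held 39.5% by estimated reads in place of 73.4% by RPKM, and 15 of the 25 top genes were shared between both rankings. The median SD was 0.26 with a pseudocount of 5, 0.41 over genes above 0 in any library and 0.28 at a minimum of 10 RPKM, and the mean r was 0.950 with a pseudocount of 5. With a minimum of 5 RPKM, 112 family genes were members in place of 183. Leaving out each library in turn gave 11675 to 12249 members, 39275 to 40332 genes listed at 0, 72.5% to 74.8% for the 100 top genes, a median SD of 0.22 to 0.31 (lowest without replicate 3), a mean r of 0.929 to 0.951, and 186 to 194 family genes. The member count was 12168 at 0.5 RPKM, 7885 at 5 RPKM, 13139 with 2 of 3 libraries and 11300 after median-of-ratios scaling. The wider search for TATA motifs, added after the printed sequences were seen, gave 2.28% of expressed genes in place of 1.54%, and 14.2% of genes listed at 0 in place of 9.51%. Reads of genes under 300 bases are poorly determined, and 3 libraries limit every SD.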
